A study of Mus musculus with 10 samples.

Results

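Chromatin accessibility was measured around 10 genes that carry glucose into the cell and through glycolysis to the pyruvate dehydrogenase step: Slc2a1, Slc2a4, Hk1, Hk2, Pfkl, Pfkfb3, Ldha, Pkm, Pdk2 and Pdk4. A peak is a stretch of open chromatin listed in the deposited count table. It was assigned to one of the 10 genes when it lay inside the gene's RefSeq GRCm38 bounds. Peaks outside protein-coding genes were assigned when the gene was the nearest protein-coding gene within 50 kb, even inside another gene model. With the nearest taken among all annotated genes, 79 peaks would remain. The rule used gave 107 of the 122984 peaks in the table. Hk2 had 27 of them, Pfkfb3 24, Slc2a1 14, Pdk4 11, Hk1 9, Pkm 7, Pfkl 5, Ldha 5, Pdk2 4 and Slc2a4 1. By place, 54 lay in gene bodies, 30 upstream, 22 downstream and 1 just outside a gene end. The annotation used gives gene bounds and starts only, so exons, introns and untranslated regions were not told apart.

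Glucose enters adipocytes through facilitative transporters. Slc2a1 encodes the basal transporter of most cells, and Slc2a4 the transporter that insulin brings to the surface of fat and muscle cells. Hexokinases (Hk1, Hk2) phosphorylate glucose and hold it in the cell, phosphofructokinase (Pfkl is its liver-type subunit) takes the committed step of glycolysis, and Pfkfb3 makes the sugar phosphate that activates phosphofructokinase. Pkm encodes the muscle-type pyruvate kinase and Ldha the lactate dehydrogenase subunit that favours lactate formation. Pyruvate dehydrogenase kinases (Pdk2, Pdk4) switch off the complex that sends pyruvate into the citric acid cycle, and Pdk4 is a known target gene of the PPAR nuclear receptors.

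MAP cells, which come from mouse adipocyte progenitors and were immortalized, were made into adipocytes and profiled by ATAC-seq after treatment. Differentiation used insulin, IBMX and dexamethasone with 1 µM rosiglitazone, a PPARγ agonist, followed by insulin with rosiglitazone, so the control cells had also met rosiglitazone. Cells at day 7 to 8 were given rosiglitazone for 3 d, vehicle (control), or forskolin, which activates adenylyl cyclase and raises cAMP, for 4 h, 1 d or 3 d. Each of the 5 groups had 2 libraries, each from 10000 sorted nuclei. In the table the libraries are S9 and S10 for rosiglitazone, S1 and S2 for control, S3 and S4 for 4 h, S5 and S6 for 1 d, and S7 and S8 for 3 d of forskolin. The labels do not say if libraries within a group were grown as separate cultures, so p-values measure the spread between these libraries, which may be technical.

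Libraries held 10410233 to 18935287 counts in peaks, the lowest in S1. Levels are CPM, counts relative to the library total after scaling by edgeR's TMM factors. Accessibility of a gene is the sum over its peaks. All 8 adipocyte marker genes (Adipoq and Plin1 among them) and all 6 progenitor markers had peaks. The adipocyte marker sum lay at 1244 to 1266 CPM with rosiglitazone, 1030 to 1122 in controls, 949 to 1022 after 4 h, 889 to 894 after 1 d and 924 to 972 after 3 d of forskolin. The progenitor sum stayed between 246 and 276 CPM in the 10 libraries. Of 6 macrophage markers Adgre1 had no peak. The sum of the other 5 was 82.8 to 84.3 CPM with rosiglitazone, 62.4 to 67.6 in controls, 81.4 to 85.1 after 4 h, 65.2 to 69.9 after 1 d and 67.0 to 70.6 after 3 d. Endothelial markers (4) summed to 107 to 114 CPM with rosiglitazone, 117 to 124 in controls, and 140 to 150, 121 to 130 and 125 to 130 after 4 h, 1 d and 3 d. The part of these differences in the results was not tested. In a bulk assay, more nuclei with a site open and a site more often open per nucleus cannot be told apart.

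The 250 bases before 4 starts are shown because the peaks at these starts are described below. No link between these sequences and accessibility was tested. Pfkfb3 has an outer start, where accessibility fell after 3 d of forskolin, and an inner start whose peak did not pass the test. Ldha is the member with a whole cAMP response element. Pdk4 is the gene called with rosiglitazone on the TMM scale, where its promoter peak did not pass. All are from RefSeq (GRCm38.p6), 5′ to 3′ on the gene's strand: Pfkfb3 outer start, chr2:11553930-11554179, minus strand; Pfkfb3 inner start, chr2:11502091-11502340, minus strand; Ldha first start, chr7:46845554-46845803, plus strand; Pdk4, chr6:5496279-5496528, minus strand. Capitals mark matches, on either strand, to the motifs searched.
Pfkfb3 outer start: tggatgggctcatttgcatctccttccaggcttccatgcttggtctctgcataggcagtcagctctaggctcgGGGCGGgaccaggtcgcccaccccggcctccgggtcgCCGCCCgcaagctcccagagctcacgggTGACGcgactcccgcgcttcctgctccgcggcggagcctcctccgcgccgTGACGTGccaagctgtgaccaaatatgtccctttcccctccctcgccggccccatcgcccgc
Pfkfb3 inner start: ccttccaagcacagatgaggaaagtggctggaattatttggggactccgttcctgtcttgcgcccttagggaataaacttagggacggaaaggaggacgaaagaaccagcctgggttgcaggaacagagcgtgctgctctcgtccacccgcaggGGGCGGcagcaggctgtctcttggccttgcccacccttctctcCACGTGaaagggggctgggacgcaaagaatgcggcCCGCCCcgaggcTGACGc
Ldha: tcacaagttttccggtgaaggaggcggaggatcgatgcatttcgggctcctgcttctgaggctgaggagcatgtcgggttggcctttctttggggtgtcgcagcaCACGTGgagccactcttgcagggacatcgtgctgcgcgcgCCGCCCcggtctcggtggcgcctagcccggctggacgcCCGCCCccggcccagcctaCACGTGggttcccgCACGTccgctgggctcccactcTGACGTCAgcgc
Pdk4: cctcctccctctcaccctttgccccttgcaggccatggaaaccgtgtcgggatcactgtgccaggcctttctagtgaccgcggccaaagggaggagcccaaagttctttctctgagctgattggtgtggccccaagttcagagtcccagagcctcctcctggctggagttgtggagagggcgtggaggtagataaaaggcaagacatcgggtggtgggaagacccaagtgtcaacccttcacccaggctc

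The motifs were the whole cAMP response element TGACGTCA, its first part TGACG, the E-box CACGTG, the hypoxia factor core ACGTG (which the E-box contains), the direct-repeat PPAR-RXR element, the AP-1 element TGANTCA and the GC box GGGCGG, on both strands. RefSeq held 14 starts for 9 members. The whole response element stood in 1 of these windows, 12 to 5 bases before the first Ldha start, against 1.55% of 32851 windows of all genes. TGACG was in 5 of 14 (17.8% of all windows), CACGTG in 3 (6.02%), ACGTG in 7 (16.6%) and GGGCGG in 6 (32.7%). The AP-1 element (6.75%) and the PPAR-RXR element (0.0335%) matched in none of the 14, and none of the 7 motifs matched in the Pdk4 window. A match is a run of letters in this window and says nothing of binding.

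Forskolin raised more of the 105 member peaks with enough counts to test than it lowered. The raised peaks lay away from promoters on the TMM scale, as did 94 of the 105 tested. Over all peaks, 21660 of the 22062 raised at 4 h also lay outside promoter windows. After 4 h, 28 peaks were higher and 10 lower than in controls (edgeR's quasi-likelihood test, Benjamini-Hochberg adjusted p below 0.05 over all 118962 peaks tested), where 31.4% of all peaks were called, 18.5% higher and 12.8% lower. After 1 d, 20 were higher and 7 lower, with 22.7% of all peaks called, 12.9% higher and 9.79% lower. After 3 d, 16 were higher and 7 lower, with 13.8% called, 8.5% higher and 5.32% lower. Rosiglitazone for 3 d gave 10 higher and 1 lower, with 6.55% called, 3.23% higher and 3.32% lower. In this fit the shares at 4 h and 1 d were near the background. Those at 3 d of forskolin and with rosiglitazone were above it without a test of that difference. By DESeq2's own test, 10 of the 105 were called at 3 d, where 9365 of 122984 peaks were, and 9 with rosiglitazone, where 3344 were. Between the 2 libraries of a group, the chi-square over its degrees of freedom was 3.37 at 3 d and 2.22 to 2.37 in the other groups. The median log2 fold change of the 105 peaks was 0.29, 0.23 and 0.11 after 4 h, 1 d and 3 d of forskolin and 0.14 with rosiglitazone, where all peaks had medians of 0.00, 0.04, 0.01 and 0.00. The values ran from -1.91 to 2.22 at 4 h, -2.00 to 2.77 at 1 d, -2.17 to 1.86 at 3 d and -2.08 to 3.18 with rosiglitazone. At least 2-fold higher were 16, 9, 7 and 8 peaks in the same order, against 13.2%, 8.41%, 5.66% and 2.09% of all peaks. At least 2-fold lower were 1, 2, 0 and 1, against 5.75%, 2.69%, 2.24% and 1.43% of all peaks. All 4 comparisons share the control libraries. With library totals alone as the scale, the split was 35 higher and 6 lower at 4 h, 36 and 3 at 1 d, and 20 and 1 at 3 d of forskolin. Of all 118954 peaks tested on that scale, 24698 were higher and 11131 lower at 4 h, 20340 and 6468 at 1 d, and 12658 and 4082 at 3 d.

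**Figure D1:**
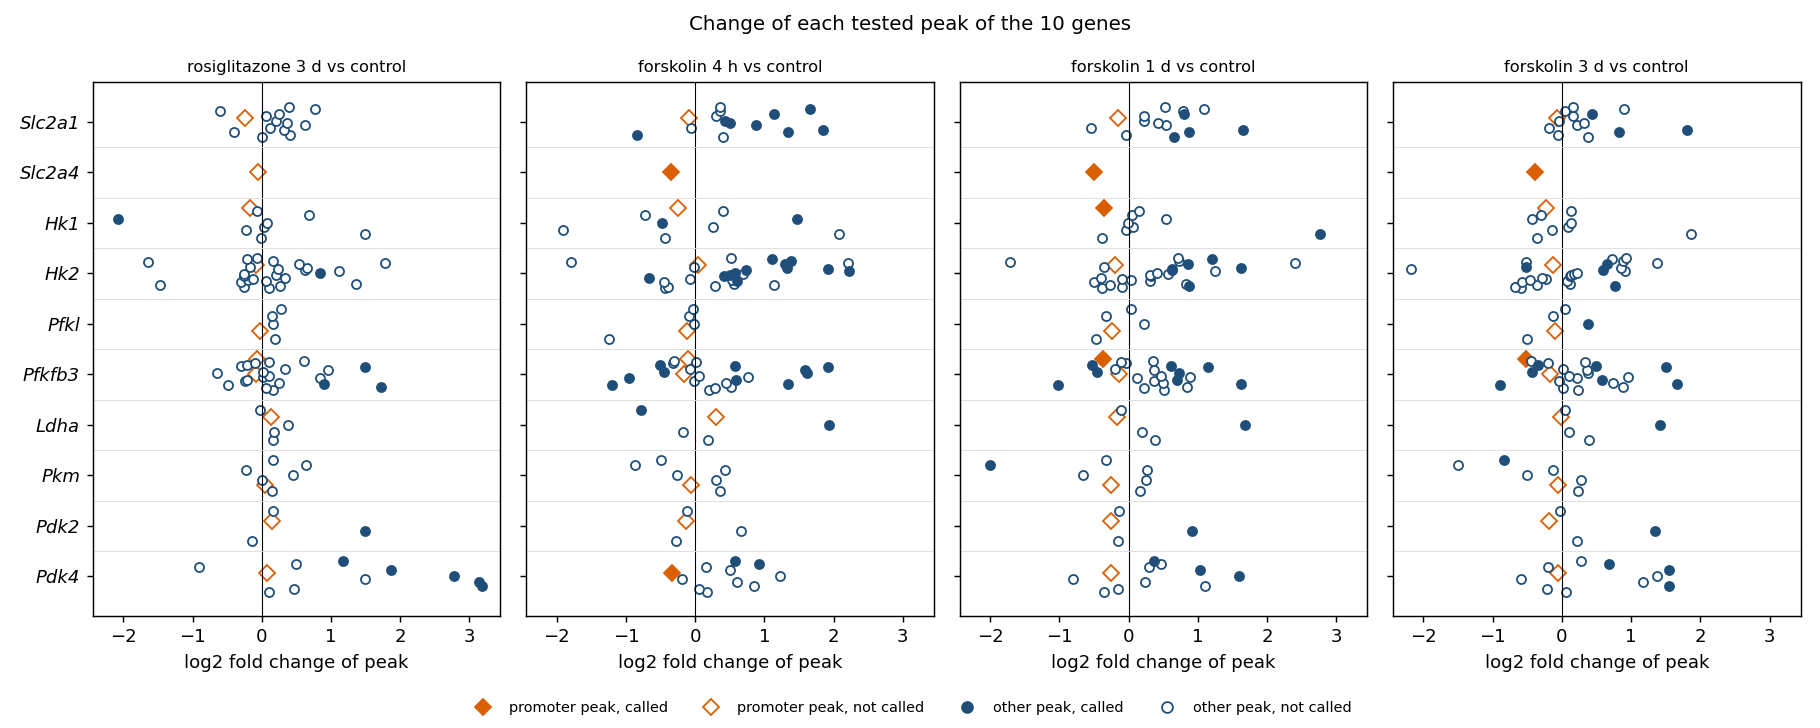
Log2 fold change of each tested peak of the 10 genes in rosiglitazone or forskolin libraries over controls (2 libraries a group). Each mark is a peak, orange diamonds are promoter peaks (with the Slc2a4 peak at its gene end) and filled marks passed the test. The filled marks to the right of the zero line are circles away from promoters, and the filled promoter peaks lie to its left on this scale, while the scale that follows peak level put most promoter values above zero.

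Over the 5 groups together, 58 of the 105 peaks differed (45.8% of all peaks did): 16 of 26 tested at Hk2, 15 of 23 at Pfkfb3, 8 at Slc2a1, 8 at Pdk4, 3 at Ldha, 2 each at Hk1, Pkm and Pdk2, and 1 each at Slc2a4 and Pfkl. One Hk2 peak and one Pfkfb3 peak had too few counts to test. Summed over peaks, 5 of 10 genes differed among the groups: Slc2a1, Slc2a4, Hk2, Pdk2 and Pdk4 (49.8% of all 17085 genes did). Against controls, Slc2a1 and Hk2 rose and Slc2a4 fell after 4 h (34.9% of all genes called), Slc2a1 rose and Slc2a4 fell after 1 d (37.6%), Slc2a4 fell after 3 d (15.5%), and Pdk4 rose with rosiglitazone (7.38%). The scale matters for gene sums: the median of all genes was -0.12, -0.13 and -0.10 (log2) after 4 h, 1 d and 3 d of forskolin, against -0.02, 0.02 and 0.00 with library totals alone. On library totals the member calls were 2 higher and 0 lower at 4 h, 4 and 1 at 1 d, and 2 and 0 at 3 d. All 17082 genes gave 2968 higher and 2331 lower, 2995 and 2063, and 1645 and 753 in the same order. With the scale that follows peak level the member calls were 3 and 0, 3 and 1, and 3 and 0. There all 17085 genes gave 2960 and 2193, 2685 and 2103, and 1608 and 763.

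**Figure D2:**
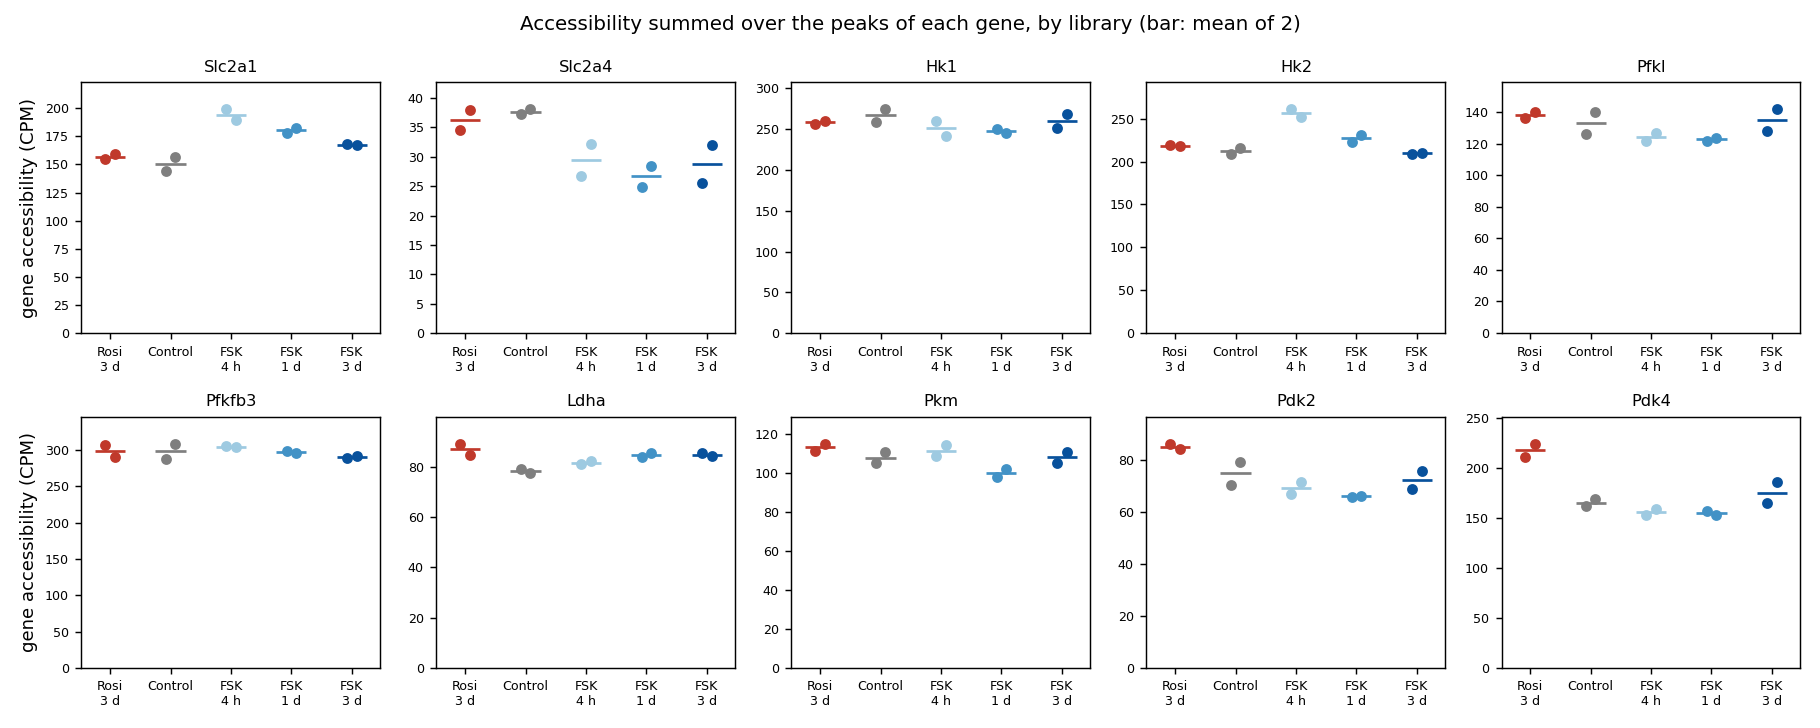
Accessibility of each gene in CPM, summed over its peaks, in the 10 libraries; points are libraries and bars the mean of 2. Pdk4 is highest in both rosiglitazone libraries, Slc2a1 and Hk2 are highest after 4 h of forskolin, and Slc2a4 is lower in all 6 forskolin libraries than in the controls.

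Slc2a1 (chr4:119108745-119137330, plus strand) gained accessibility with forskolin, most after 4 h. Its peaks summed to 154 and 159 CPM in rosiglitazone libraries, 144 and 157 CPM in controls, and with forskolin 199 and 189 CPM after 4 h, 178 and 182 CPM after 1 d and 168 and 167 CPM after 3 d. All 6 forskolin libraries lay above both controls, and rosiglitazone overlapped the controls. The log2 fold change (± SE) was 0.37 ± 0.06 (adjusted p = 0.000134) after 4 h and 0.26 ± 0.06 (adjusted p = 0.00286) after 1 d. After 3 d it was 0.15 ± 0.06 (adjusted p = 0.0938), which missed the threshold, and with rosiglitazone 0.06 ± 0.06 (adjusted p = 0.602). The 1 d call was lost when only peaks inside the gene counted (0.12, adjusted p = 0.285). At 4 h, 7 of the 14 peaks were higher and 1 lower, against 18.5% and 12.8% of all peaks. The macrophage marker sum was also higher at 4 h, at 81.4 to 85.1 CPM, against 62.4 to 67.6 CPM in controls, and the endothelial sum was 140 to 150 CPM, against 117 to 124 CPM in controls. Of the 5 macrophage genes tested at 4 h, Cd68, Itgam and Csf1r were called higher, Mrc1 lower and 1 not at all. Of the 4 endothelial genes, Cdh5 and Kdr were called higher and 2 not at all. The part of both sums was not tested.

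Most peaks that passed the test over controls lay upstream of Slc2a1, with 1 in its body and 1, at 4 h alone, downstream, and the peak at its start did not pass. The peak at chr4:119082491-119083050, 26.0 kb upstream and within the bounds of the gene model Gm35510, had 3.44 and 3.77 CPM in rosiglitazone libraries, 4.54 and 4.95 CPM in controls, and with forskolin 11.8 and 12.3 CPM after 4 h, 9.11 and 8.40 CPM after 1 d and 8.61 and 8.15 CPM after 3 d. Its forskolin and control libraries did not overlap. It rose by 1.34 ± 0.21 (adjusted p = 3.47e-07) at 4 h, 0.88 ± 0.21 (adjusted p = 0.00122) at 1 d and 0.82 ± 0.22 (adjusted p = 0.0054) at 3 d. The last of these calls was lost without S1 or S7 (0.76 to 0.78, adjusted p = 0.051 to 0.0523). A weaker peak 22.1 kb upstream (chr4:119086374-119086899) had 1.93 and 1.36 CPM in rosiglitazone libraries, 0.807 and 1.73 CPM in controls, and with forskolin 5.07 and 4.41 CPM after 4 h, 4.25 and 4.02 CPM after 1 d and 4.13 and 5.14 CPM after 3 d. Every forskolin library was above every other library there, with 1.85 ± 0.35 (adjusted p = 1.55e-05), 1.66 ± 0.35 (adjusted p = 0.000195) and 1.81 ± 0.35 (adjusted p = 9.38e-05) at 4 h, 1 d and 3 d.

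Inside the gene, 17.1 kb from the start (chr4:119125475-119126242), levels were 13.8 and 16.5 CPM in rosiglitazone libraries, 14.6 and 11 CPM in controls, and with forskolin 29.1 and 26.6 CPM after 4 h, 21.2 and 23.0 CPM after 1 d and 16.7 and 17.7 CPM after 3 d. They were highest at 4 h (1.13 ± 0.15, adjusted p = 2.47e-09) and stayed above controls at 1 d (0.80 ± 0.15, adjusted p = 2.67e-05). At 3 d the value was 0.44 ± 0.15 (adjusted p = 0.0426), a call lost without S2, S3, S4, S5, S6, S7 or S8 (0.23 to 0.48, adjusted p = 0.0514 to 0.514). One upstream peak went the other way: at 31.2 kb (chr4:119077109-119077980) it had 3.95 and 4.83 CPM after 4 h of forskolin, against 6.26 and 9.41 CPM in controls (-0.84 ± 0.23, adjusted p = 0.0024, lost without S2 or S3, at -0.71 to -0.51, adjusted p = 0.0512 to 0.214). Both of these peaks were added with their values known. The promoter peak (chr4:119108462-119109439) held 45.1 and 48.9 CPM in rosiglitazone libraries, 51.1 and 60.2 CPM in controls, and with forskolin 55.1 and 50.3 CPM after 4 h, 48.6 and 52.1 CPM after 1 d and 47.9 and 59.0 CPM after 3 d and passed in no comparison.

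Slc2a4 (chr11:69942286-69948216) lost accessibility with forskolin on the TMM scale at its one peak, chr11:69948037-69949191, which lies across a gene end. The peak had 34.6 and 38.0 CPM in rosiglitazone libraries, 37.2 and 38.1 CPM in controls, and with forskolin 26.8 and 32.3 CPM after 4 h, 24.9 and 28.4 CPM after 1 d and 25.6 and 32.0 CPM after 3 d. Every forskolin library lay below both controls, and rosiglitazone overlapped them. As gene accessibility the change was -0.35 ± 0.12 (adjusted p = 0.0304) at 4 h, -0.50 ± 0.12 (adjusted p = 0.00339) at 1 d and -0.40 ± 0.12 (adjusted p = 0.0339) at 3 d. The 4 h call was lost without S1, S2 or S3 (-0.37 to -0.22, adjusted p = 0.0827 to 0.29), the 1 d call without S5 (-0.41, adjusted p = 0.0681), and the 3 d call without S1, S2, S7 or S9 (-0.41 to -0.23, adjusted p = 0.068 to 0.311). With library totals alone the values were -0.25 (adjusted p = 0.0832) at 4 h and -0.30 (adjusted p = 0.0712) at 3 d. With the scale that follows peak level no member gene was called lower at 4 h or 3 d, so the Slc2a4 calls at those times were lost. The adipocyte marker sum moved the same way, at 949 to 1022, 889 to 894 and 924 to 972 CPM after 4 h, 1 d and 3 d, against 1030 to 1122 CPM in controls. Of its 8 genes, 3, 6 and 4 were called lower, Fabp4 was called higher at 4 h, and its part was not tested.

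Hk1 (chr10:62268855-62379920, minus strand), the hexokinase of most tissues, passed in no comparison as a sum over its peaks, at 257 and 260.5 CPM in rosiglitazone libraries, 259 and 275 CPM in controls, and with forskolin 259.8 and 242 CPM after 4 h, 250.2 and 245 CPM after 1 d and 252 and 269 CPM after 3 d (joint adjusted p = 0.408). Single sites moved in opposite directions. A small peak in the body, 16.5 kb from an inner start (chr10:62323786-62323989), had 0.619 and 0.247 CPM in rosiglitazone libraries, 2.02 and 1.65 CPM in controls, and with forskolin 5.27 and 4.83 CPM after 4 h, 3.18 and 2.14 CPM after 1 d and 1.47 and 1.19 CPM after 3 d. Both 4 h libraries were above, and both rosiglitazone libraries below, every control. It rose by 1.47 ± 0.36 (adjusted p = 0.00088) at 4 h. With rosiglitazone it fell by 2.08 on the log2 scale (adjusted p = 0.00412), from 13 counts with rosiglitazone against 40 in controls, a ratio of 0.233 (95% counting interval 0.114 to 0.445). This call was lost without S10 (-1.54, adjusted p = 0.128).

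A strong Hk1 peak 19.7 kb from the inner start (chr10:62320256-62321088, added with its values known) was less open at 4 h. It had 62.3 and 66.0 CPM in rosiglitazone libraries, 60.1 and 61.6 CPM in controls, and with forskolin 44.7 and 42.5 CPM after 4 h, 59.7 and 61.2 CPM after 1 d and 66.4 and 66.5 CPM after 3 d. The 4 h libraries stood below all 8 others (-0.48 ± 0.12, adjusted p = 0.000926), and 3 d libraries were above 4 h libraries (0.61 ± 0.12, adjusted p = 0.000115). At 1 d it was -0.01 ± 0.12 (adjusted p = 0.959) over controls, or 0.30, which passed the test, with a scale that follows peak level. Another small peak (chr10:62282894-62283052) rose at 1 d by 2.77 ± 0.84 (adjusted p = 0.0104). It had 47 counts after 1 d against 4 in controls, a ratio of 6.9 (2.52 to 26.4), mostly in S5. It was no longer called without S1 or S5 (1.72 to 2.33, adjusted p = 0.0904 to 0.332). The peak at the inner start (chr10:62339896-62340849), which also covers Hk1os, had 87.1 and 91.1 CPM after 1 d of forskolin, against 109 and 118 CPM in controls (-0.35 ± 0.12, adjusted p = 0.02), but 0.076 with that other scale. Without single libraries it was lost without S2, S5 or S6 (-0.39 to -0.30, adjusted p = 0.0729 to 0.194). The outermost Hk1 start has no peak.

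Hk2 (chr6:82725025-82774454, minus strand), the hexokinase that insulin induces in fat and muscle, was more open after 4 h of forskolin, and at 3 d its libraries overlapped the controls. Its peaks summed to 219 and 218 CPM in rosiglitazone libraries, 208 and 216 CPM in controls, and with forskolin 261 and 252 CPM after 4 h, 223 and 231 CPM after 1 d and 209 and 210.3 CPM after 3 d. The 4 h libraries were above the other 8. The change was 0.28 ± 0.05 (adjusted p = 0.000656) at 4 h, 0.10 ± 0.05 (adjusted p = 0.162) at 1 d, -0.02 ± 0.06 (adjusted p = 0.854) at 3 d and 0.04 ± 0.06 (adjusted p = 0.68) with rosiglitazone. The 3 d level was below the 4 h level (-0.29 ± 0.05, adjusted p = 0.00133, or -0.27, adjusted p = 0.0544 without S3). Of 26 peaks tested, the calls were 11 higher and 1 lower at 4 h, 5 higher and 0 lower at 1 d, 3 higher and 1 lower at 3 d and 1 higher and 0 lower with rosiglitazone. Of all peaks, 31.4%, 22.7%, 13.8% and 6.55% were called in the same order, so the Hk2 share was above that at 4 h (46.2%) and near or below it after 1 d (19.2%), 3 d (15.4%) and with rosiglitazone (3.85%), with no test of the difference. The macrophage and endothelial marker sums were also above those of controls at 4 h (81.4 to 85.1 against 62.4 to 67.6 CPM and 140 to 150 against 117 to 124 CPM). Among these markers, Cd68, Itgam, Csf1r, Cdh5 and Kdr were called higher, Mrc1 lower and the rest not at all. The part of both sums was not tested.

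The Hk2 peak with the smallest joint p lay 23.3 kb upstream (chr6:82797394-82798204), where levels were 9.98 and 9.14 CPM in rosiglitazone libraries, 5.45 and 7.51 CPM in controls, and with forskolin 17.3 and 15.0 CPM after 4 h, 11.1 and 12.7 CPM after 1 d and 12.4 and 7.99 CPM after 3 d. Each forskolin library and each rosiglitazone library exceeded both controls. The log2 fold change was 1.30 ± 0.19 (adjusted p = 6.07e-08) at 4 h, 0.86 ± 0.19 (adjusted p = 0.000446) at 1 d and 0.66 ± 0.20 (adjusted p = 0.016) at 3 d. At 3 d the call was lost without S1 or S7 (0.29 to 0.46, adjusted p = 0.217 to 0.543). Inside the gene, 13.0 kb from the start (chr6:82761325-82761507), levels were 1.65 and 1.48 CPM in rosiglitazone libraries, 0.404 and 0.990 CPM in controls, and with forskolin 3.42 and 3.32 CPM after 4 h, 2.01 and 1.43 CPM after 1 d and 1.71 and 0.95 CPM after 3 d, highest at 4 h (2.22 ± 0.46, adjusted p = 9.23e-05). A small peak at 6.2 kb (chr6:82768218-82768365) had 3.49 and 2.48, and 3.86 and 3.41 CPM after 4 h and 1 d of forskolin, against 1.01 and 1.32 CPM in controls (1.33 ± 0.39, adjusted p = 0.00618 and 1.62 ± 0.38, adjusted p = 0.000937; the 4 h call was lost without S1 or S3, at 1.07 to 1.17, adjusted p = 0.0607 to 0.102). Its neighbour at 6.5 kb (chr6:82767862-82767992) rose at 4 h by 1.91 ± 0.67 (adjusted p = 0.0222), lost without S1, S2, S3 or S4 (1.70 to 2.21, adjusted p = 0.0661 to 0.115). There, 3 counts after 3 d stood against 60 after 4 h, a ratio of 0.0536 (0.0108 to 0.164).

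At the Hk2 start the promoter peak (chr6:82774142-82774880) had 64.7 and 68.7 CPM in rosiglitazone libraries, 69.5 and 71.4 CPM in controls, and with forskolin 70.1 and 75.4 CPM after 4 h, 60.1 and 63.2 CPM after 1 d and 62.0 and 67.3 CPM after 3 d, and no comparison passed. Of 2 further Hk2 peaks added with their values known, chr6:82751899-82752104 had 4.35 and 4.35 CPM after 4 h, against 7.16 and 6.68 CPM in controls (-0.67 ± 0.23, adjusted p = 0.0218), and chr6:82753038-82753475 had 22.5 and 23.0 CPM after 4 h, against 17.5 and 16.6 CPM in controls (0.42 ± 0.14, adjusted p = 0.0148). Both calls were lost when single libraries were left out, the first without S1, S2, S3 or S4 (-0.72 to -0.62, adjusted p = 0.0652 to 0.0959) and the second without S2, S3 or S4 (0.38 to 0.44, adjusted p = 0.0607 to 0.119).

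**Figure D3:**
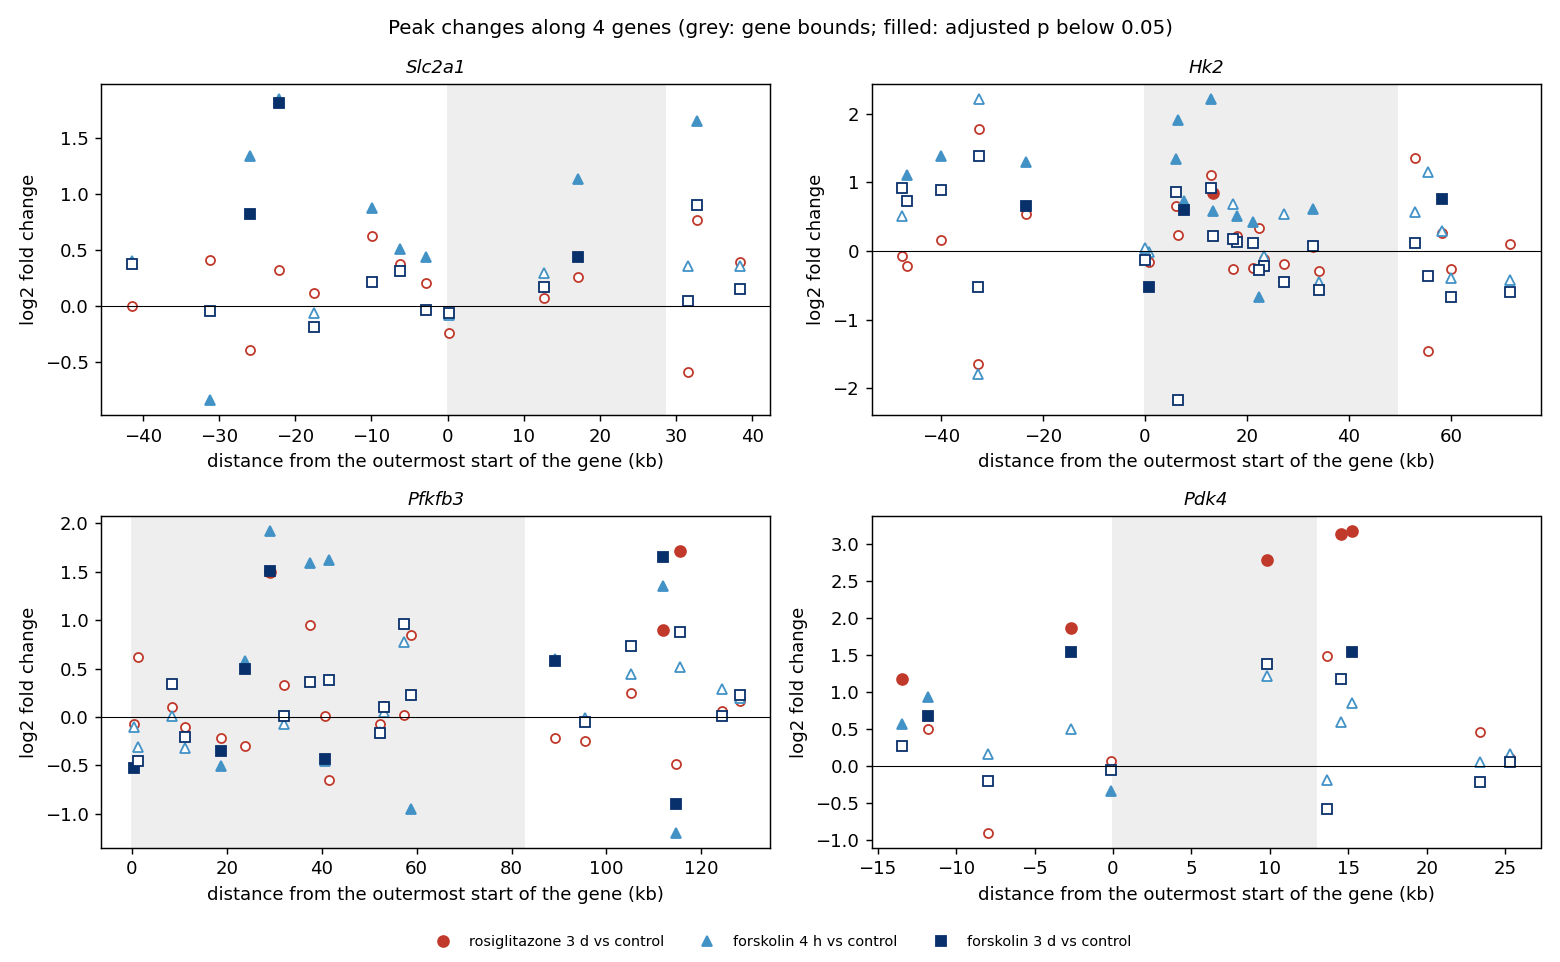
Log2 fold change over controls of the tested peaks of Slc2a1, Hk2, Pfkfb3 and Pdk4, by distance in kb from each gene's outermost start, for rosiglitazone 3 d, forskolin 4 h and forskolin 3 d. Points are peaks and filled points passed the test. Filled points lie upstream, within and downstream of the genes, and the peaks at the starts lie near or below zero on this scale.

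Pfkl (chr10:77986947-78009807, minus strand) passed in no comparison as a sum, at 136 and 139.9 CPM in rosiglitazone libraries, 126 and 140.3 CPM in controls, and with forskolin 122 and 127 CPM after 4 h, 122 and 124 CPM after 1 d and 128 and 142 CPM after 3 d (joint adjusted p = 0.156). One of its 5 peaks was called over the 5 groups. The peak 3.2 kb upstream (chr10:78012670-78013325) had 36.4 and 37.8 CPM after 3 d of forskolin, against 25.5 and 31.4 CPM in controls (0.38 ± 0.13, adjusted p = 0.0377). That 3 d call was lost without S1, S3, S4, S7 or S8 (0.24 to 0.40, adjusted p = 0.0513 to 0.371). Its promoter peak (chr10:78009110-78010104) held 84.6 and 89.6 CPM in rosiglitazone libraries, 86.0 and 90.8 CPM in controls, and with forskolin 82.1 and 80.4 CPM after 4 h, 72.0 and 77.8 CPM after 1 d and 77.0 and 87.8 CPM after 3 d, and no comparison passed.

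Pfkfb3 (chr2:11471430-11554071, minus strand) passed in no comparison as a sum, at 307 and 290.0 CPM in rosiglitazone libraries, 288 and 309 CPM in controls, and with forskolin 306 and 304 CPM after 4 h, 299 and 297 CPM after 1 d and 289 and 292 CPM after 3 d (joint adjusted p = 0.797). The 95% intervals of its log2 change were -0.07 to 0.13 at 4 h, -0.11 to 0.10 at 1 d, -0.14 to 0.06 at 3 d and -0.10 to 0.10 with rosiglitazone. Its single peaks changed in both directions. Of 23 tested, the calls were 6 higher and 4 lower at 4 h, 5 higher and 4 lower at 1 d, 4 higher and 4 lower at 3 d and 3 higher and 0 lower with rosiglitazone. Of all peaks, 18.5% were higher and 12.8% lower at 4 h, 12.9% and 9.79% at 1 d, 8.5% and 5.32% at 3 d and 3.23% and 3.32% with rosiglitazone, and the difference from these shares was not tested.

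Some Pfkfb3 sites were most open at 4 h. The peak in the body 10.36 kb before the inner start (chr2:11512201-11512699) had 2.75 and 2.29 CPM in rosiglitazone libraries, 3.53 and 4.29 CPM in controls, and with forskolin 12.6 and 11.5 CPM after 4 h, 6.31 and 6.67 CPM after 1 d and 5.78 and 4.35 CPM after 3 d. It was highest in the 4 h libraries, and all forskolin libraries exceeded both controls. It rose by 1.62 ± 0.23 (adjusted p = 2.97e-08) at 4 h and 0.72 ± 0.24 (adjusted p = 0.0198) at 1 d. Leaving out libraries ended the 1 d call without S1, S2, S5 or S6 (0.60 to 0.88, adjusted p = 0.0527 to 0.145). The 3 d level was below the 4 h level, at -1.24 ± 0.21 (adjusted p = 1.53e-05). A second site 14.4 kb before the inner start (chr2:11516293-11516657) had 5.92 and 2.66 CPM in rosiglitazone libraries, 2.52 and 1.90 CPM in controls, and with forskolin 6.39 and 6.76 CPM after 4 h, 2.96 and 2.70 CPM after 1 d and 2.59 and 3.09 CPM after 3 d, with 1.58 ± 0.31 (adjusted p = 3.37e-05) at 4 h and -1.22 ± 0.28 (adjusted p = 0.00169) for 3 d over 4 h.

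Other Pfkfb3 sites were more open at every forskolin time. Downstream, within the gene model Gm31990 (chr2:11441893-11442260), levels were 4.54 and 3.46 CPM in rosiglitazone libraries, 2.42 and 1.90 CPM in controls, and with forskolin 5.73 and 5.19 CPM after 4 h, 6.59 and 6.67 CPM after 1 d and 6.72 and 6.81 CPM after 3 d. Rosiglitazone and forskolin libraries all exceeded the controls, by 1.35 ± 0.28 (adjusted p = 0.000109), 1.63 ± 0.27 (adjusted p = 4.28e-06) and 1.66 ± 0.28 (adjusted p = 7.69e-06) at 4 h, 1 d and 3 d. With rosiglitazone it was 0.89 ± 0.29 (adjusted p = 0.0493), lost without S1, S2, S3, S4, S5, S6, S9 or S10 (0.68 to 1.08, adjusted p = 0.0533 to 0.344). The site 22.8 kb before the inner start, within Gm10851 (chr2:11524604-11525122), rose in all 4 treatments: it had 5.09 and 4.14 CPM in rosiglitazone libraries, 1.31 and 1.90 CPM in controls, and with forskolin 4.67 and 7.61 CPM after 4 h, 3.80 and 3.46 CPM after 1 d and 5.42 and 3.72 CPM after 3 d. The changes were 1.5 ± 0.33 (adjusted p = 0.00134) with rosiglitazone and 1.92 ± 0.32 (adjusted p = 1.2e-06), 1.15 ± 0.33 (adjusted p = 0.00664) and 1.5 ± 0.33 (adjusted p = 0.000562) at 4 h, 1 d and 3 d. Here the 1 d call was lost without S1 or S5 (0.93 to 1.09, adjusted p = 0.0528 to 0.0907).

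Further downstream, of 2 neighbouring Pfkfb3 peaks one was called higher with rosiglitazone and the other lower with forskolin. At chr2:11438359-11438809 rosiglitazone gave 6.60 and 5.31 CPM, against 1.41 and 2.15 CPM in controls (1.72 ± 0.31, adjusted p = 0.000104), and forskolin gave 0.51 to 0.88, none of them called (adjusted p = 0.0513 to 0.257). The next peak (chr2:11439355-11439702) had 1.51 and 2.66, 2.57 and 2.19, and 2.42 and 2.77 CPM after 4 h, 1 d and 3 d of forskolin, against 4.84 and 4.79 CPM in controls. That was -1.19 ± 0.32 (adjusted p = 0.00248), -1.02 ± 0.31 (adjusted p = 0.011) and -0.90 ± 0.32 (adjusted p = 0.0433), and with rosiglitazone -0.49 ± 0.30 (adjusted p = 0.371). The calls were lost without S3 (-0.85, adjusted p = 0.0979) at 4 h, without S2 or S6 (-1.02 to -0.90, adjusted p = 0.067 to 0.103) at 1 d and without S1, S2, S5, S6, S7, S8 or S9 (-0.99 to -0.80, adjusted p = 0.0506 to 0.229) at 3 d.

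Of 4 stronger Pfkfb3 peaks added with their values known, chr2:11464463-11465189 was higher at all 3 times (0.60, 0.70 and 0.58, adjusted p = 0.000613, 9.9e-05 and 0.00249) with 14.9 and 12.0 CPM in rosiglitazone libraries, 15.3 and 15.7 CPM in controls, and with forskolin 24.8 and 22.2 CPM after 4 h, 25.7 and 24.7 CPM after 1 d and 24.3 and 21.9 CPM after 3 d. The peak at chr2:11530017-11530617 was also higher (0.58, 0.62 and 0.49). Its calls were lost without S2 or S3 (0.46 to 0.48, adjusted p = 0.0836 to 0.0854) at 4 h, without S2 or S5 (0.51 to 0.53, adjusted p = 0.0611 to 0.0792) at 1 d and without S2, S7 or S8 (0.39 to 0.53, adjusted p = 0.073 to 0.261) at 3 d. Lower at all 3 times were chr2:11512963-11513709 (-0.45, -0.46 and -0.43) and chr2:11534859-11535919 (-0.51, -0.52 and -0.35). The calls at the first were lost without S2 or S3 (-0.42 to -0.39, adjusted p = 0.0681 to 0.0953) at 4 h, without S2 or S5 (-0.44 to -0.39, adjusted p = 0.0676 to 0.113) at 1 d and without S2, S7 or S8 (-0.46 to -0.36, adjusted p = 0.0556 to 0.201) at 3 d. Those at the second were lost without S2 (-0.38, adjusted p = 0.0699) at 4 h, without S2 (-0.39, adjusted p = 0.0784) at 1 d and without S2, S3, S4, S5, S6, S7, S9 or S10 (-0.35 to -0.22, adjusted p = 0.0536 to 0.444) at 3 d.

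At the outer Pfkfb3 start, whose sequence is printed above, the promoter peak (chr2:11552985-11554292) had 25.6 and 28.0 CPM in rosiglitazone libraries, 27.7 and 28.5 CPM in controls, and with forskolin 25.7 and 26.7 CPM after 4 h, 21.7 and 21.9 CPM after 1 d and 19.8 and 19.3 CPM after 3 d. The 3 d libraries were below all others, and both 1 d libraries were below both controls. At 3 d it fell by 0.52 on the log2 scale (adjusted p = 0.00335) and by 0.37 at 1 d (adjusted p = 0.0293). The 1 d call was lost without S1, S2, S5 or S6 (-0.39 to -0.35, adjusted p = 0.0808 to 0.16) and with library totals alone or the scale that follows peak level (-0.22 and -0.25, adjusted p = 0.217 and 0.133). The inner promoter peak (chr2:11501080-11502424) had 49.9 and 53.2 CPM after 3 d of forskolin, against 56.2 and 59.2 CPM in controls (-0.16 ± 0.12, adjusted p = 0.383). The difference between the 2 starts was not tested.

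Ldha (chr7:46842274-46855627, plus strand) passed in no comparison as a sum, at 89.2 and 84.9 CPM in rosiglitazone libraries, 79.1 and 77.6 CPM in controls, and with forskolin 81.1 and 82.3 CPM after 4 h, 83.9 and 85.6 CPM after 1 d and 85.6 and 84.3 CPM after 3 d (joint adjusted p = 0.425). One small upstream peak opened with forskolin. At chr7:46840465-46840629, 5.3 kb before the first promoter start, levels were 1.58 and 0.926 CPM in rosiglitazone libraries, 0.908 and 0.990 CPM in controls, and with forskolin 3.88 and 3.44 CPM after 4 h, 3.18 and 2.95 CPM after 1 d and 2.77 and 2.29 CPM after 3 d. All forskolin libraries exceeded all rosiglitazone and control libraries. The change was 1.93 ± 0.40 (adjusted p = 9e-05) at 4 h, 1.68 ± 0.40 (adjusted p = 0.00115) at 1 d and 1.41 ± 0.42 (adjusted p = 0.0141) at 3 d. For 3 d the call was lost without S1, S2 or S7 (1.26 to 1.48, adjusted p = 0.0801 to 0.121). The promoter peak with the response element (chr7:46845366-46847158) had 29.7 and 29.6 CPM in rosiglitazone libraries, 27.7 and 26.5 CPM in controls, and with forskolin 31.1 and 35.5 CPM after 4 h, 24.8 and 23.6 CPM after 1 d and 25.5 and 28.5 CPM after 3 d. It passed in no comparison with controls on the TMM scale, and was called higher at 4 h with the scale that follows peak level (0.41, adjusted p = 0.00341). Its 1 d level was below that at 4 h (-0.46 ± 0.12, adjusted p = 0.0147, lost without S4, S5 or S6, at -0.49 to -0.36, adjusted p = 0.0928 to 0.25).

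Pkm (chr9:59656576-59679372, plus strand) had 112 and 115 CPM in rosiglitazone libraries, 105 and 111 CPM in controls, and with forskolin 109 and 114 CPM after 4 h, 98.0 and 102 CPM after 1 d and 105 and 111 CPM after 3 d, and no comparison passed (joint adjusted p = 0.224). A very small peak near its far end (chr9:59677636-59677783) had 9 counts after 1 d of forskolin, against 22 in controls, a ratio of 0.24 (0.0973 to 0.543). That call (adjusted p = 0.0453) was lost without S2, S5, S6, S9 or S10 (-2.10 to -1.53, adjusted p = 0.0585 to 0.338). The same peak had 10 counts after 3 d of forskolin, against 47 with rosiglitazone, a ratio of 0.221 (0.0995 to 0.443; adjusted p = 0.02, lost without S7, S9 or S10, at -2.29 to -1.68, adjusted p = 0.0556 to 0.197). Its promoter peak (chr9:59655972-59656800) held 70.8 and 72.0 CPM in rosiglitazone libraries, 65.7 and 71.9 CPM in controls, and with forskolin 63.2 and 68.9 CPM after 4 h, 55.1 and 60.5 CPM after 1 d and 60.7 and 71.5 CPM after 3 d, and no comparison passed.

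**Figure D4:**
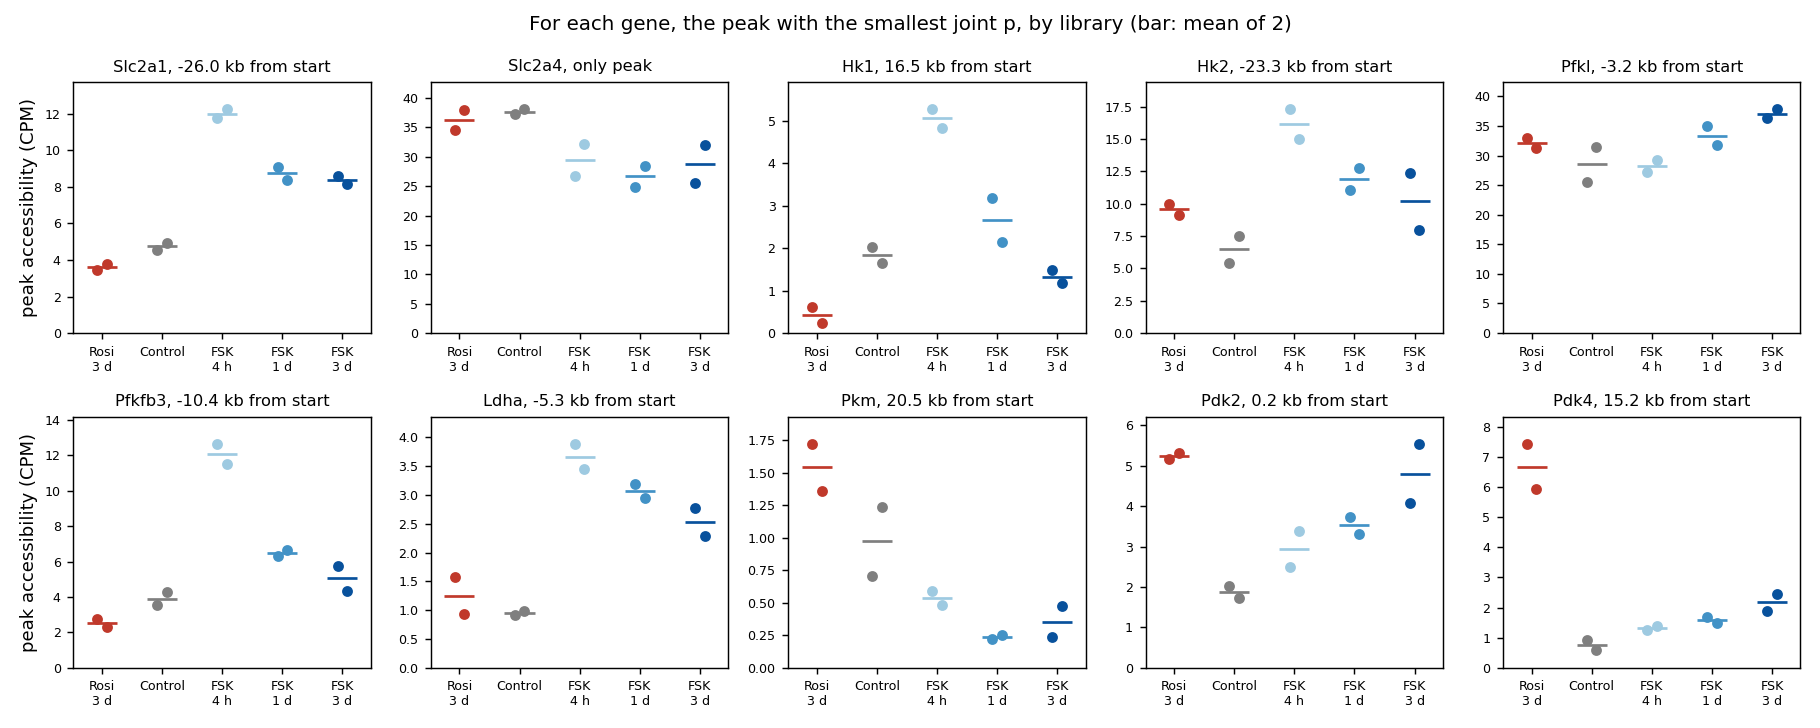
CPM in each of the 10 libraries at the peak of each gene with the smallest joint p over the 5 groups; points are libraries and bars the mean of 2, with the distance from the nearest start in each title. Peaks of Slc2a1, Hk1, Hk2, Pfkfb3 and Ldha are highest after 4 h of forskolin, and those of Pdk2 and Pdk4 are high in rosiglitazone libraries.

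Pdk2 (chr11:95026258-95041371, minus strand), the most widely expressed of the kinases, differed over the 5 groups (joint adjusted p = 0.0113) with no single comparison called. Its sum was 86.0 and 83.9 CPM in rosiglitazone libraries, 70.3 and 79.0 CPM in controls, and with forskolin 66.8 and 71.3 CPM after 4 h, 65.8 and 66.0 CPM after 1 d and 68.8 and 75.6 CPM after 3 d. Both rosiglitazone libraries were above all others, at 0.18 ± 0.09 (adjusted p = 0.208) over controls and -0.24 ± 0.09 (adjusted p = 0.0638) for forskolin over rosiglitazone at 3 d. Pdk2 has 2 RefSeq starts. A small peak just inside the gene (chr11:95040561-95040733) lay 0.2 kb from the inner start and 0.72 kb from the outer one. This peak had 5.16 and 5.31 CPM in rosiglitazone libraries, 2.02 and 1.73 CPM in controls, and with forskolin 2.50 and 3.38 CPM after 4 h, 3.74 and 3.31 CPM after 1 d and 4.07 and 5.54 CPM after 3 d. It was above both controls in all 8 treated libraries. The change was 1.49 ± 0.31 (adjusted p = 0.000838) with rosiglitazone, 0.91 ± 0.32 (adjusted p = 0.029) at 1 d and 1.35 ± 0.32 (adjusted p = 0.00151) at 3 d of forskolin. Only the 1 d call was lost, without S1, S2, S5 or S6 (0.80 to 1.02, adjusted p = 0.0589 to 0.199). Its promoter peak next to it (chr11:95041154-95041687) had 42.0 and 48.7 CPM after 3 d of forskolin, against 59.8 and 55.2 CPM with rosiglitazone (-0.35 ± 0.12, adjusted p = 0.0267, lost without S7, S9 or S10, at -0.40 to -0.24, adjusted p = 0.0592 to 0.292).

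Pdk4 (chr6:5483351-5496278, minus strand) was the one gene of the 10 called with rosiglitazone on the TMM scale. Its peaks summed to 211 and 224 CPM in rosiglitazone libraries, 162 and 169 CPM in controls, and with forskolin 152 and 159 CPM after 4 h, 157 and 153 CPM after 1 d and 165 and 186 CPM after 3 d. Both rosiglitazone libraries were above all others, and the forskolin libraries lay on either side of the controls. The rise was 1.32-fold (0.40 ± 0.07, adjusted p = 0.000921). Forskolin gave -0.09 ± 0.07 (adjusted p = 0.308), -0.09 ± 0.07 (adjusted p = 0.288) and 0.08 ± 0.07 (adjusted p = 0.41) at 4 h, 1 d and 3 d. With a limit of 10 kb in place of 50 kb the rosiglitazone value was 0.27 (adjusted p = 0.0521). With library totals alone, 3 of the 10 genes were called higher and 0 lower with rosiglitazone. The scale that follows peak level gave the same counts. Of all genes, 1146 were higher and 448 lower on library totals, and 764 and 712 on the other scale. The adipocyte marker sum was also higher, at 1244 to 1266 CPM with rosiglitazone, against 1030 to 1122 CPM in controls. Of its 8 genes, Cidec and Fabp4 were called higher, Cebpa lower and 5 not at all, with a median of 0.08, and its part was not tested. Of 11 Pdk4 peaks, 5 higher and 0 lower were called with rosiglitazone, against 3.23% and 3.32% of all peaks.

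The largest change was behind the gene, 15.2 kb from its start (chr6:5480657-5481422), where levels were 7.43 and 5.93 CPM in rosiglitazone libraries, 0.908 and 0.578 CPM in controls, and with forskolin 1.25 and 1.39 CPM after 4 h, 1.68 and 1.48 CPM after 1 d and 1.89 and 2.45 CPM after 3 d. Both rosiglitazone libraries lay above all others, and 3 d libraries were above both controls. Counts were 204 with rosiglitazone, against 16 in controls, a ratio of 9.14 (95% counting interval 5.49 to 16.3), and the log2 fold change was 3.18 ± 0.39 (adjusted p = 1.21e-08). At 3 d of forskolin it was 1.55 ± 0.45 (adjusted p = 0.0111), a call lost without S2 or S8 (1.23 to 1.36, adjusted p = 0.0614 to 0.172). Next to it (chr6:5481621-5481865) were 64 counts with rosiglitazone, against 5 in controls, a ratio of 9.18 (3.73 to 29.2; adjusted p = 0.00642). That call was lost without S1, S2 or S10 (2.82 to 3.31, adjusted p = 0.0642 to 0.109).

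In the Pdk4 body, 9.8 kb from the start (chr6:5486244-5486708), 98 counts with rosiglitazone stood against 10 in controls, a ratio of 7.03 (3.66 to 15.1; 2.78 ± 0.52, adjusted p = 0.000136). Its levels were 2.55 and 3.77 CPM in rosiglitazone libraries, 0.404 and 0.495 CPM in controls, and with forskolin 0.988 and 1.15 CPM after 4 h, 1.40 and 1.38 CPM after 1 d and 1.06 and 1.35 CPM after 3 d, and all treated libraries exceeded both controls. As the only Pdk4 peak inside the gene, it was called higher at 1 d of forskolin (1.59) when gene sums used peaks inside genes only. Just upstream, 2.6 kb before the start (chr6:5498782-5499069), a peak also rose with both agents. It had 11.6 and 12.8 CPM in rosiglitazone libraries, 2.72 and 3.88 CPM in controls, and with forskolin 4.02 and 5.44 CPM after 4 h, 7.49 and 6.26 CPM after 1 d and 8.78 and 10.9 CPM after 3 d, with every treated library above both controls and forskolin levels highest at 3 d. The change was 1.87 ± 0.23 (adjusted p = 9.31e-09) with rosiglitazone and 1.04 ± 0.24 (adjusted p = 0.000711) and 1.55 ± 0.24 (adjusted p = 8.76e-07) at 1 d and 3 d of forskolin. At 4 h it was 0.50 ± 0.25 (adjusted p = 0.121), and 3 d was above 4 h (1.04 ± 0.21, adjusted p = 0.000236).

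Farther upstream, 13.4 kb before the start, a strong peak (chr6:5509281-5510152, added with its values known) had 37.2 and 43.2 CPM in rosiglitazone libraries, 15.7 and 19.6 CPM in controls, and with forskolin 25.2 and 27.5 CPM after 4 h, 23.2 and 22.7 CPM after 1 d and 21.6 and 21.3 CPM after 3 d. Both rosiglitazone libraries lay above all others, and the 6 forskolin libraries above the controls. The change was 1.18 ± 0.14 (adjusted p = 1.03e-09) with rosiglitazone and 0.57 ± 0.14 (adjusted p = 0.000788) at 4 h. The 4 h call was lost without S1 (0.43, adjusted p = 0.0546). The Pdk4 promoter peak (chr6:5495930-5496856) had 129.9 and 134 CPM in rosiglitazone libraries, 124 and 128 CPM in controls, and with forskolin 96.3 and 103 CPM after 4 h, 106 and 105 CPM after 1 d and 111 and 131 CPM after 3 d. With rosiglitazone it did not pass (0.07 ± 0.11, adjusted p = 0.78), but was called with the scale that follows peak level (0.28, adjusted p = 0.0105). At 4 h it was -0.34 ± 0.11 (adjusted p = 0.0183), but 0.013 with the scale that follows peak level. It was also lost without S1, S2, S3 or S4 (-0.38 to -0.29, adjusted p = 0.0605 to 0.189).

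On the TMM scale no promoter peak of these genes was called higher than controls, but with the scale that follows peak level some were. RefSeq promoter windows held 10 peaks of 9 genes. None was higher than controls by edgeR or by DESeq2, and at an unadjusted p below 0.05 there was 1, at 4 h. Lower than controls were Pdk4 at 4 h, Hk1 and Pfkfb3 outer at 1 d and Pfkfb3 outer at 3 d. Among all promoter peaks, 26.2%, 35.3% and 8.0% were lower in the same comparisons and 3.56%, 2.46% and 1.73% higher. Rosiglitazone called none of the 10 (1 at an unadjusted p below 0.05, none by DESeq2), against 1.11% higher and 4.0% lower among all promoter peaks. With the scale that follows peak level, 9, 8 and 8 of the 10 values over controls were above zero at 4 h, 1 d and 3 d of forskolin, and 9 with rosiglitazone. The calls there were Hk2 and Ldha higher at 4 h, Pdk4 higher at 1 d, Pfkfb3 outer lower at 3 d, and Pdk2 and Pdk4 higher with rosiglitazone. On that scale 4.93%, 4.07%, 2.28% and 2.5% of all promoter peaks were higher in the same order, and 11.7%, 11.1%, 3.59% and 2.74% lower. The Ldha promoter was also called higher at 4 h with library totals alone, in the fit of only those 2 groups, and without S7 or S8. The Slc2a4 peak, for which no start was matched, was counted apart from these windows and from the other peaks. Of the 94 other peaks, 28, 20 and 16 were higher after 4 h, 1 d and 3 d of forskolin and 10 with rosiglitazone, against 20.1%, 14%, 9.21% and 3.46% of all peaks outside promoter windows. Lower were 8, 4, 5 and 1 in the same order, against 11.4%, 7.11%, 5.03% and 3.25%. The difference between promoter and other peaks of these genes was not tested.

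Across forskolin times, more peaks of these genes were called between 3 d and 4 h than between 3 d and 1 d. At 3 d, 6 peaks were higher and 12 lower than at 4 h, where 11.1% of all peaks were called, 4.34% higher and 6.78% lower. Slc2a1 and Hk2 were the genes that fell (8.68% of all genes called). For Slc2a1 that was -0.21 ± 0.06 (adjusted p = 0.0308), lost without S3, S4, S5, S6 or S9 (-0.25 to -0.18, adjusted p = 0.0519 to 0.305). At 1 d, 2 peaks were higher and 3 lower than at 4 h (5.57%), and no gene was called by edgeR or DESeq2, against 5.28% of all genes (2 at an unadjusted p below 0.05). Between 3 d and 1 d edgeR and DESeq2 called none of the 105 peaks (9 at an unadjusted p below 0.05) and none of the 10 genes (2 unadjusted), where 0.187% of all peaks and 0.0117% of all genes were called.

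Set side by side at 3 d, forskolin was higher than rosiglitazone at 10 peaks and lower at 15, with 21.7% of all peaks called, 12.9% higher and 8.84% lower. Among genes, Pdk4 was lower with forskolin (-0.32 ± 0.07, adjusted p = 0.0017), with 16.7% of all genes called, and was -0.23 (adjusted p = 0.0549) with the 10 kb limit. Peaks higher with forskolin included the Slc2a1 sites 26.0 kb (1.22 ± 0.21, adjusted p = 8.24e-06) and 22.1 kb upstream (1.49 ± 0.32, adjusted p = 0.000205). The peaks lower with forskolin included the Pdk4 sites behind the gene (-1.63 ± 0.32, adjusted p = 5.02e-05) and 13.4 kb upstream (-0.91 ± 0.13, adjusted p = 5.88e-08). At the Pdk4 peak 2.6 kb upstream the difference was -0.32 ± 0.19 (adjusted p = 0.24), which did not pass.

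Of 50 other genes of glucose transport, glycolysis and pyruvate entry, 49 could be tested as gene sums. After 4 h of forskolin 5 were higher and 9 lower, after 1 d 5 and 10, after 3 d 4 and 5, and with rosiglitazone 1 and 0. The shares of all genes called were those given above. Of all 17085 genes, 2077 were higher and 3883 lower, 1601 and 4816, 893 and 1749, and 405 and 856 in the same order. On library totals alone the splits were 9 higher and 6 lower at 4 h, 6 and 2 at 1 d, 6 and 2 at 3 d, and 11 and 0 with rosiglitazone. All 17082 genes on that scale split into 2968 higher and 2331 lower, 2995 and 2063, 1645 and 753, and 1146 and 448 in the same order. The medians of the list were -0.14, -0.10, -0.08 and 0.01, against -0.12, -0.13, -0.10 and -0.05 for all genes. At 3 d, forskolin over rosiglitazone gave 2 higher and 10 lower on the TMM scale, where 1427 of all 17085 genes were higher and 1434 lower. The difference from that split was not tested. Txnip, which restrains glucose uptake, had 207 and 226 CPM in rosiglitazone libraries, 189 and 204 CPM in controls, and with forskolin 97.8 and 104 CPM after 4 h, 97.1 and 105 CPM after 1 d and 113 and 125 CPM after 3 d. All 6 forskolin libraries lay far below the other 4, at -0.96 ± 0.07 (adjusted p = 8.29e-09), -0.96 ± 0.07 (adjusted p = 1.07e-07) and -0.73 ± 0.07 (adjusted p = 4.61e-06) at 4 h, 1 d and 3 d, and these calls held in every alternative tried.

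Of the other listed genes among the 3 smallest adjusted p of a comparison, Pdhx changed with how peaks were assigned, while Pgam2 and Pklr had low levels and larger log2 changes than Txnip. Pdhx, a subunit that anchors part of the pyruvate dehydrogenase complex, rose by 0.99, 0.82 and 0.78 at 4 h, 1 d and 3 d of forskolin and by 0.58 with rosiglitazone, but its 1 d value was -0.26 when only peaks inside the gene counted. By any overlap with gene bounds its values were 0.13, 0.03, 0.06 and 0.09 in the same order, none of them called. Slc16a1, a lactate and pyruvate carrier, rose by 0.25 ± 0.06 (adjusted p = 0.00605) at 3 d. Pgam2, the muscle phosphoglycerate mutase, had 2.51 and 3.01 CPM after 1 d of forskolin, against 0.605 and 0.990 CPM in controls. It rose by 1.75 ± 0.44 (adjusted p = 0.00397), a call kept in all 20 alternatives. Its change for 1 d over 4 h (1.41 ± 0.38, adjusted p = 0.0343) was lost without S3, S4, S5 or S6 (1.27 to 1.52, adjusted p = 0.136 to 0.216) and by DESeq2 (adjusted p = 0.0794). Pklr, the liver and red cell pyruvate kinase, had 11.5 and 11.5 CPM after 3 d of forskolin, against 5.64 and 4.45 CPM with rosiglitazone (1.19 ± 0.18, adjusted p = 0.000107, kept in all 17 alternatives that gave it a value). Tbc1d1, a regulator of transporter traffic, fell by 0.26 on the log2 scale at 4 h (adjusted p = 0.000145).

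As a description over the 10 libraries (log2 CPM of 16246 genes, r with no test), the profiles most like Slc2a1 were those of Il1r2 (0.986), Slc37a2 (0.978) and Bhmg1 (0.977). For Slc2a4 they were Zfp248 (0.990), Cbx5 (0.975) and Copg1 (0.973), and for Hk2 Efcc1 (0.965), Lhfpl2 (0.964) and Optc (0.964). Pdk2 was most like Tsfm (0.978), Grik5 (0.972) and Nif3l1 (0.968), and Pdk4 most like Chrnb2 (0.960), Trarg1 (0.959) and Impa2 (0.957). All values share the same libraries and scale.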

How the data were processed

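ATAC-seq libraries (10, in 5 groups of 2) came as one deposited table of counts per peak. The submitters' processing notes name, with no role, featureCounts, MACS2, Bowtie2, fastp, Picard, deepTools and SAMtools and the builds GRCm38 and mm10; versions, peak-calling settings and any shift of reads for the transposase are not given in the sources used here. The authors' counts were used as deposited, with totals of 10410233 to 18935287 per library. Peaks have a median width of 358 bases.

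Counts were tested with edgeR 4.0.16 (R 4.3.3): TMM factors, filterByExpr, a robust quasi-likelihood fit over all 10 libraries, and F tests for 8 comparisons and jointly over the 5 groups, with Benjamini-Hochberg adjustment over 118962 of 122984 peaks, or over 17085 of 17203 genes with counts summed over their peaks. A call is an adjusted p below 0.05. SE is the log2 fold change over the square root of F. Peaks went to RefSeq protein-coding genes (GRCm38.p6) as given in the report. DESeq2 1.42.0, other scales, filters and assignments, and leaving out each library were alternatives. Ratios of small counts carry 95% exact counting intervals, which cover counting error only.

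Named by rule were all 10 genes, their promoter peaks, the peak with the smallest joint p per gene, peaks called with at least a 2-fold change (at most 5 each way per comparison), the 3 listed genes with the smallest p per comparison, and the 3 most similar genes. Peaks with a joint adjusted p below 0.001 were added after values were seen. The genes and lists were chosen with earlier results of these data known. The scripts were tested on simulated data.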

Additional observations from a re-analysis of the deposited data

Results flagged for a closer look

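Each result here is a difference between forskolin times that passed edgeR's test of that difference (log2 fold change of the later over the earlier time). For 1 d over 4 h, the Pfkfb3 peaks at chr2:11512201-11512699 and chr2:11516293-11516657 were lower (-0.89 and -1.22), as was the Ldha promoter peak (-0.46). In the same comparison the Slc2a1 peak at chr4:119077109-119077980 (0.81) and the Hk1 peak at chr10:62320256-62321088 (0.47) were higher. Leaving out 1 library ended the call for the Pfkfb3 peak at chr2:11512201-11512699 without S3 or S5 (-0.86 to -0.83, adjusted p = 0.0623 to 0.0667), the one at chr2:11516293-11516657 without S6 (-1.15, adjusted p = 0.0709) and the Ldha promoter without S4, S5 or S6 (-0.49 to -0.36, adjusted p = 0.0928 to 0.25). It also ended the call for the Slc2a1 peak without S3 or S6 (0.68 to 0.72, adjusted p = 0.155 to 0.186) and the Hk1 peak without S3, S4, S5 or S6 (0.43 to 0.51, adjusted p = 0.0593 to 0.127).

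For 3 d over 4 h, gene accessibility was lower at Slc2a1 (-0.21) and Hk2 (-0.29). Peaks lower at 3 d were the Slc2a1 peak at chr4:119125475-119126242 (-0.69), the Hk1 peak at chr10:62323786-62323989 (-1.90), the Hk2 peaks at chr6:82797394-82798204 (-0.64), chr6:82761325-82761507 (-1.30) and chr6:82767862-82767992 (-4.09, from 3 counts at 3 d against 60 at 4 h), the Pfkfb3 peaks at chr2:11512201-11512699 (-1.24) and chr2:11516293-11516657 (-1.22), and the outer Pfkfb3 promoter (-0.42). Higher at 3 d than at 4 h were the Slc2a1 peak at chr4:119077109-119077980 (0.79), the Hk1 peak at chr10:62320256-62321088 (0.61), the Pfkl peak 3.2 kb upstream (0.39), the Pfkfb3 peak at chr2:11494983-11495322 (1.18) and the Pdk4 peak 2.6 kb upstream (1.04). With 1 library left out, the call was lost for Slc2a1 as a gene without S3, S4, S5, S6 or S9 (-0.25 to -0.18, adjusted p = 0.0519 to 0.305), Hk2 as a gene without S3 (-0.27, adjusted p = 0.0544) and the Slc2a1 peak at chr4:119077109-119077980 without S3 or S7 (0.63 to 0.66, adjusted p = 0.133 to 0.153). The same held for the Hk2 peak at chr6:82797394-82798204 without S3 or S8 (-0.54 to -0.38, adjusted p = 0.137 to 0.256), the Hk2 peak at chr6:82761325-82761507 without S3, S4 or S8 (-1.33 to -0.98, adjusted p = 0.0826 to 0.225) and the outer Pfkfb3 promoter without S3, S4 or S8 (-0.45 to -0.39, adjusted p = 0.0792 to 0.147). Calls were lost too for the Pfkl peak without S3, S4 or S8 (0.34 to 0.45, adjusted p = 0.0793 to 0.254) and the Pfkfb3 peak at chr2:11494983-11495322 without S4 or S7 (0.78 to 0.96, adjusted p = 0.178 to 0.295).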

How the results depend on the processing

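No paired analysis was possible because the columns carry no labelled replicate numbers. Counts below are calls under an alternative, beside the main count; the cause of each change was not tested unless the alternative removes peaks or libraries. With DESeq2's own test, member peaks were 10 at 3 d of forskolin over control (main 23), 7 for 3 d over 4 h (18) and 15 for forskolin over rosiglitazone (25), and listed pathway genes 1 for 1 d over 4 h (3) and 3 for 3 d over 4 h (5). Over all peaks that test called 9365, 6105 and 16549 of 122984 in the same order, against 16437, 13235 and 25872 of 118962 in the main fit. Over all genes it called 760 and 1146 of 17203 for 1 d and 3 d over 4 h, against 902 and 1483 of 17085. With DESeq2's size factors in edgeR, 1 member gene was called for 1 d over 4 h (0), and 944 of all 17085 genes (902). With library totals alone, member genes were 5 at 1 d (2), 2 at 3 d (1), 3 for forskolin over rosiglitazone (1) and 3 with rosiglitazone (1), and pathway genes 8 at 1 d (15), 8 for 3 d over 4 h (5) and 11 with rosiglitazone (1). Over all 17082 genes this scale called 5058 at 1 d (6417), 2398 at 3 d (2642) and 1976 for 3 d over 4 h (1483). For forskolin over rosiglitazone it called 3556 (2861), and with rosiglitazone 1594 (1261). With a scale that follows peak level, member genes were 4 at 1 d (3 higher, 1 lower), and 3 higher and 0 lower at 3 d and with rosiglitazone. At 3 d the main fit had 0 higher and 1 lower. At 4 h this scale gave 3 higher and 0 lower, where the main fit had 2 and 1. Pathway genes were 8 at 1 d (7 higher, 1 lower), 9 for 3 d over 4 h and 8 with rosiglitazone (8 higher, 0 lower). Over all 17085 genes this scale called 4788 at 1 d, 2371 at 3 d, 2104 for 3 d over 4 h and 1476 with rosiglitazone.

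Fitting only the groups compared gave 11 member peaks for 1 d over 4 h (5) and 13 at 3 d (23), member genes 1, 0 and 1 for 1 d over 4 h, 3 d and 3 d over 4 h, and pathway genes 22 at 4 h, 2 at 3 d, 2 for 3 d over 4 h, 6 for forskolin over rosiglitazone and 4 with rosiglitazone. Over all peaks these fits called 10648 of 113897 for 1 d over 4 h and 12646 of 106619 at 3 d. Over all genes they called 2116 of 16977 for 1 d over 4 h, 473 of 16888 at 3 d and 549 of 16980 for 3 d over 4 h. At 4 h they called 7596 of 16923 genes, for forskolin over rosiglitazone 1565 of 16960, and with rosiglitazone 2258 of 16876. Counting only peaks inside genes, which leaves 54 of 107, gave 29 peaks in the joint test (58), 20, 14, 10 and 5 at 4 h, 1 d, 3 d and with rosiglitazone, 12 for forskolin over rosiglitazone, 0 genes at 3 d and 1 for 3 d over 4 h, and 0 pathway genes with rosiglitazone. Over all 14509 genes it gave 1670 at 3 d, 1003 for 3 d over 4 h and 840 with rosiglitazone. The 10 kb limit gave 0 member genes with rosiglitazone and for forskolin over rosiglitazone, 4 pathway genes at 3 d and 0 with rosiglitazone. Over all 16610 genes it gave 948 with rosiglitazone, 2392 for forskolin over rosiglitazone and 2178 at 3 d. Assignment among all annotated genes gave 1 member gene at 1 d, 1 for 3 d over 4 h, 2 for forskolin over rosiglitazone, and 5 and 0 pathway genes at 3 d and with rosiglitazone. Of all 28232 genes in that assignment, 9600, 3134, 5956, 4780 and 2280 were called in the same order. Assignment by any overlap gave 0 pathway genes with rosiglitazone, and 1153 of all 17461 genes.

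Reversed values were Pfkfb3 at 1 d (0.15, library totals), Pdk4 at 1 d (1.59, peaks inside the gene only), Pdhx at 1 d (-0.26, the same), and with the scale that follows peak level the Hk1 promoter (0.076) and the Hk1 peak at chr10:62320256-62321088 (0.30) at 1 d, and the Pdk4 promoter at 4 h (0.013) and 1 d (0.21). The values of Pfkfb3, Pdk4, the Hk1 peak at chr10:62320256-62321088 and the Pdk4 promoter at 1 d passed the test in those alternatives. Among values of single genes, 940 of the leave-one-out values kept direction and side of the threshold, 42 no longer passed and 8 newly passed; among single peaks these were 3359, 204 and 37. With other settings they were 916, 36 and 24 for genes and 2033, 68 and 34 for peaks. Small peaks rest on few counts, and 2 libraries a group limit every call.

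Leaving out 1 library in turn, member peaks ranged over 20 to 43 at 4 h (lowest without S3), 14 to 35 at 1 d (without S5), 9 to 21 at 3 d and 11 to 26 for forskolin over rosiglitazone (both without S7), 8 to 13 with rosiglitazone, 1 to 8 for 1 d over 4 h, 8 to 20 for 3 d over 4 h, and 46 to 61 jointly. Member genes ranged over 2 to 3, 1 to 3, 0 to 1 and 1 to 1 at 4 h, 1 d, 3 d and with rosiglitazone, 1 to 3 for forskolin over rosiglitazone, 0 to 1, 0 to 3 and 0 to 1 for 1 d over 4 h, 3 d over 4 h and 3 d over 1 d, and 4 to 6 jointly. Pathway genes ranged over 6 to 21, 6 to 18, 4 to 19 and 0 to 3 at 4 h, 1 d, 3 d and with rosiglitazone, 4 to 16 for forskolin over rosiglitazone, and 0 to 4, 0 to 6 and 0 to 7 for 1 d over 4 h, 3 d over 4 h and 3 d over 1 d. A group left with 1 library is assumed to vary like the others. The calls over all peaks and all genes also changed when a library was left out, and shares were not compared. Over all peaks, fewer were also called than in the main fit at 4 h without S3 and at 1 d without S5. The same held without S7 at 3 d and for forskolin over rosiglitazone.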
